A study of Mus musculus with 9 samples.

Results

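Chrna4 and Hectd2os are 2 of the 55335 genes listed for these livers, and both were chosen by the measured values themselves, namely a lower FPKM in mice conceived by in vitro fertilization (IVF) and by frozen embryo transfer (FET) than after natural conception (NC). Their levels are therefore given as a description, and the calls of the fit across all genes are given only as the values they were chosen by, not as a test of them. FPKM is the number of sequenced fragments divided by gene length and by the mapped total of each library. The liver RNA came from 9 male B6D2F2 mice aged 20 weeks and fasted for 4 h, with 3 mice in each of the NC, IVF and FET groups. These were the chow-fed mice of the study. IVF and FET mice both came from embryos made in vitro and placed at the 2-cell stage into ICR recipients, the FET embryos after slow freezing and storage in liquid nitrogen, while NC mice were carried by their own mothers. Transfer to a recipient therefore cannot be told apart from IVF in the comparisons with NC. The parents were B6D2F1/J hybrids, so the offspring are not genetically identical, and the litters of these 9 mice are not given in the sources used here. The labels number the NC mice 1, 5 and 6 and the IVF and FET mice 2, 3 and 4. Of these libraries, NC mice 5 and 6 stood apart by many immune receptor gene segments above 0, with values given beside the results they touch.

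Chrna4 encodes the alpha4 subunit of nicotinic acetylcholine receptors, which are ion channels that open when acetylcholine or nicotine binds. With the beta2 subunit, encoded by Chrnb2, it forms a high-affinity nicotine receptor of the brain, and it is known as a neuronal gene rather than a liver gene. Hectd2os is a non-coding antisense transcript named for its position opposite Hectd2, which encodes a ubiquitin ligase of the HECT family. HECT enzymes accept ubiquitin on a cysteine of their own before passing it to a target protein.

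Chrna4 (ENSMUSG00000027577) is a protein-coding gene of the minus strand at chr2:181018380-181043546 in GRCm38, with 5 annotated GENCODE vM21 transcripts whose exons cover 5022 bp together. No other annotated gene overlaps its span. Hectd2os (ENSMUSG00000087579) lies on the minus strand at chr19:36614052-36705641 and has 8 transcripts whose exons cover 3977 bp. It is antisense to Hectd2 on the plus strand, and 1834 exonic bp are shared, which is 46.1% of the exonic length of Hectd2os and 20.2% of that of Hectd2. Strandedness is not stated, so reads from these shared bases cannot be told apart.

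The sequences before the RefSeq starts of both genes are shown because they differ in composition, although no binding or methylation was measured here. They are from RefSeq on GRCm38.p6, minus strand, 5′ to 3′, at chr2:181039306-181039427 for Chrna4 and chr19:36689480-36689729 for Hectd2os. For Chrna4 only the part upstream of every GENCODE transcript that starts there is printed, which holds 1 of 3 matches to the motif searched. Capitals mark a match to the GC box GGGCGG, read on either strand.
Chrna4: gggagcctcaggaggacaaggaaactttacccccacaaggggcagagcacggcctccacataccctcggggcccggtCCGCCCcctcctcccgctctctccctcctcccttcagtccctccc
Hectd2os: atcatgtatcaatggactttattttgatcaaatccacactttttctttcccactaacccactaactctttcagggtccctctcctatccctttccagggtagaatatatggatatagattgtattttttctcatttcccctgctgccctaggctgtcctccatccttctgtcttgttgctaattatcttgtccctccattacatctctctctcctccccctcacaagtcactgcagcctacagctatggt
Over windows of 300 bases around the starts, the Chrna4 window had a GC content of 74.3% and 33 CpG dinucleotides, and 8.56% of 32851 promoters of that length had as many. The Hectd2os window had a GC content of 44% and no CpG, against a median of 7 CpG over all promoters. GGGCGG occurred 3 times in the Chrna4 window, nowhere in the Hectd2os window and in 35.7% of all promoters. Also searched on both strands and in neither window were TATAAA (in 13.6% of all promoters), CCAAT (37.4%), AGGTCA (16.3%), CACGTG (7.15%), TGACGTCA (1.79%), TTATGTAA (0.938%) and the consensus HNF1 motif (0.00913%).

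Chrna4 was listed at 0 in all 3 IVF and all 3 FET mice, and its level in the NC group rested on 2 of the 3 mice. Its FPKM was 0.487 in NC mouse 1, 46.5 in NC mouse 5 and 33.0 in NC mouse 6. The NC mean was 26.7 ± 23.7 (SD, n = 3), a coefficient of variation of 88.7%. NC mouse 1 was 95.5-fold below NC mouse 5 and lay closer to the mice listed at 0 than to the other 2 NC mice. Ranked among all genes of the same library, Chrna4 was number 417 in NC mouse 5 and number 627 in NC mouse 6, but number 8304 in NC mouse 1.

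Hectd2os was listed at 0 in IVF mice 3 and 4 and in all 3 FET mice, but not in every IVF mouse. Its FPKM was 64.6 in NC mouse 1, 9.51 in NC mouse 5, 7.56 in NC mouse 6 and 4.81 in IVF mouse 2. The NC mean was 27.2 ± 32.4 (SD, n = 3), a coefficient of variation of 119%, and the IVF mean was 1.60 ± 2.77 (SD, n = 3). The lowest NC mouse stood 1.57-fold above IVF mouse 2, so a complete loss after IVF was not seen for this gene. The NC mouse with the highest Hectd2os had the lowest Chrna4, and over the 9 mice their log2(FPKM + 1) had a Pearson r of 0.472, given as a description since all values share the same libraries.

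**Figure D1:**
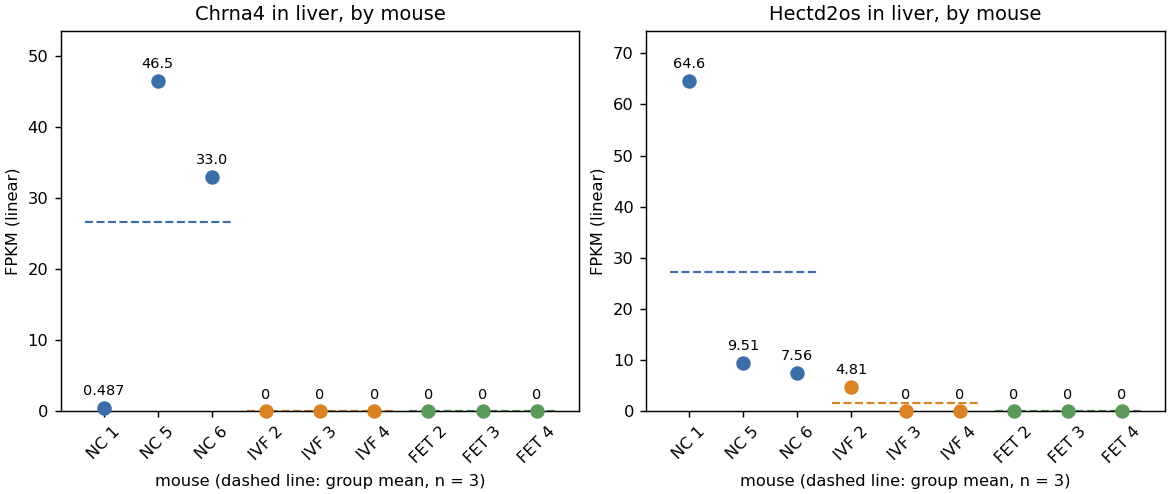
FPKM of Chrna4 and Hectd2os in each of the 9 mice on linear axes, with the group mean (n = 3) as a dashed line. Chrna4 is above 0 in 3 NC mice, with 0.487 in NC mouse 1, and Hectd2os is above 0 in 3 NC mice and in IVF mouse 2.

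The order of Hectd2os between NC and IVF depended on the scaling. With median-ratio scaling, which sets the libraries to a common median over genes, Hectd2os was 65.7, 6.76 and 4.67 in NC mice 1, 5 and 6 and 13.3 in IVF mouse 2. After rescaling to the sum over nuclear protein-coding genes it was 69.4, 6.94 and 4.86 in the NC mice and 12.4 in IVF mouse 2. Under both, IVF mouse 2 lay above 2 of the 3 NC mice, and the NC and IVF groups overlapped. Nuclear protein-coding genes made up 4.36% of the summed FPKM in IVF mouse 2, 4.41% in FET mouse 4 and up to 29.3% in the other 7 mice. Chrna4 kept its order, with 0.496, 33.1 and 20.4 in NC mice 1, 5 and 6 under median-ratio scaling and 0 in the other 6 mice.

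**Figure D2:**
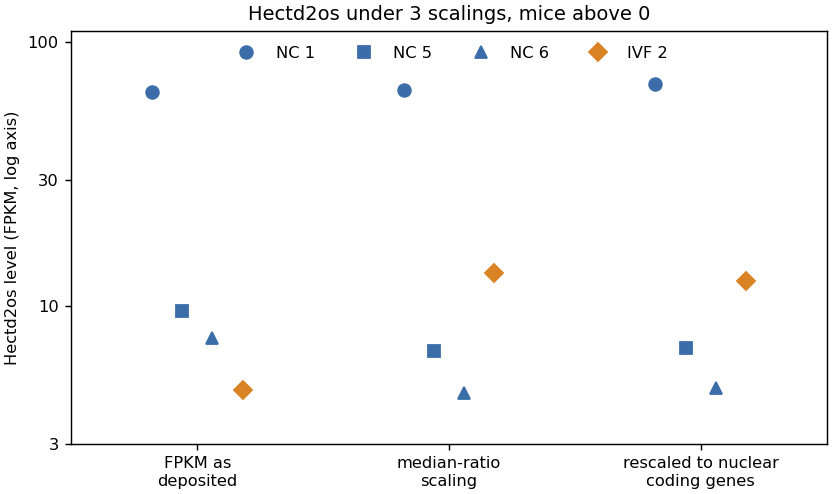
Hectd2os level (log axis) in the 4 mice above 0, as deposited and under the other 2 scalings. IVF mouse 2 is lowest at 4.81 as deposited, and at 13.3 and 12.4 it lies above NC mice 5 and 6 under the other scalings.

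The number of fragments behind these values is not part of the table. It was estimated from low FPKM values, which step by a fixed amount per fragment where the gene's length is known. In each library 43.2% to 55.7% of low values lay on a step, and 3 rules, set after the values were seen, gave estimates that differed up to 2.02-fold in NC mouse 1, IVF mouse 2 and FET mouse 2. In units of 1000000 fragments, the estimates were 3.3 to 6.59 in NC mouse 1, 11.93 in NC mouse 5, 13.31 to 13.37 in NC mouse 6 and 8.42 to 16.86 in IVF mouse 2. In the other 5 mice they ran from 1 to 2.02 in FET mouse 2 up to 4.5 in IVF mouse 3. On the longest transcript, Chrna4 then rested on about 2534 fragments in NC mouse 5 but on 7.34 to 14.7 in NC mouse 1. At the level of NC mouse 1, the same gene would have given 2.22 to 4.48 fragments in FET mouse 2, 6.26 in FET mouse 3 and 6.51 in FET mouse 4. In the IVF mice it would have given 18.7 to 37.5 in mouse 2, 10.02 in mouse 3 and 8.63 to 8.68 in mouse 4. These numbers assume equal deposited FPKM and the longest Chrna4 transcript, of 4565 bp. So counted, a level as low as that of NC mouse 1 is close to the limit of detection in FET mouse 2, and less so in the other 5 mice. A shorter transcript, such as that of 2071 bp, would give fewer fragments in every mouse. Nuclear coding genes held 4.41% of summed FPKM in FET mouse 4 against 10.1% in NC mouse 1, so rescaling to them would also give fewer there. The limit may therefore reach more mice than FET mouse 2. Hectd2os at the level of IVF mouse 2 would have given 12.8 to 25.8 fragments in FET mouse 2 and between 36.0 and 57.6 in the other libraries listed at 0. A value listed at 0 may also be a failed estimate, since the housekeeping genes Pgk1, Pgam1 and Gusb were listed at 0 in FET mouse 2 and Hprt in FET mouse 4. In bulk liver, fewer cells that express a gene and less RNA per cell cannot be told apart.

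In 6755 genes whose FPKM averaged 1 or more over the 9 mice, limma on log2(FPKM + 1) called 4 genes (0.0592%) changed in IVF against NC, 16 (0.237%) in FET against NC and 6 (0.0888%) in FET against IVF at an adjusted p under 0.05. Both Chrna4 and Hectd2os were among those lower in both comparisons, where 0.0444% and 0.178% of all genes tested were called lower, and nothing is read from these calls because they chose the genes. The calls were not stable. In IVF against NC, neither gene was called under any of 7 other settings of the fit, and each was called in 3 of 9 fits that left out 1 mouse. The fitted difference in log2(FPKM + 1) for Chrna4, no bound on a fold since IVF is listed at 0, was -3.74 as first fitted and -3.36 to -3.74 under 5 of the settings. It was -6.60 with a pseudocount of 0.1 and -0.57 with NC mouse 1 alone as NC. For Hectd2os the difference was -3.33 as first fitted, -2.54 to -3.33 under the same 5 settings, -5.52 with a pseudocount of 0.1 and -5.19 with NC mouse 1 alone. Leaving out a FET mouse ended calls without changing either difference. In FET against NC, Chrna4 was called under none of the 7 settings and in 5 of the 9 fits, and Hectd2os under 2 settings and in 8 fits. The fitted difference in FET against NC was -3.74 for Chrna4 and -4.18 for Hectd2os as first fitted. Under the same 5 settings it was -3.12 to -3.74 for Chrna4 and -3.56 to -4.18 for Hectd2os. It was -6.60 and -7.39 with a pseudocount of 0.1, and -0.57 and -6.04 with NC mouse 1 alone. The 2 settings that called Hectd2os were a pseudocount of 0.1 and NC mouse 1 alone as the NC group, a fit that assumes this lone mouse to vary like the other groups. In IVF against NC, the call of Chrna4 ended without NC mouse 5 and that of Hectd2os without NC mouse 1. Both ended without IVF mouse 2, 3 or 4 and without FET mouse 3 or 4. Without an IVF mouse, the difference for Chrna4 stayed at -3.74. That for Hectd2os was -4.18 without IVF mouse 2 and -2.91 without IVF mouse 3 or 4. Without NC mouse 1, 5 or 6, it was -5.33, -2.83 and -3.07 for Chrna4 and -2.40, -3.72 and -3.87 for Hectd2os. In FET against NC, the call of Chrna4 ended without IVF mouse 2 or 4 and without FET mouse 3 or 4. That of Hectd2os ended only without FET mouse 3. These removals left the FET against NC differences at -3.74 for Chrna4 and -4.18 for Hectd2os.

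Genes with the pattern of Chrna4 were counted as a description, since both the choice of the gene and its passing the filter rest on that pattern. Of the 6755 genes, 2 were above 0 in all 3 NC mice and listed at 0 in the other 6, which is 0.0296%, and the same count was 0 with IVF or FET as the group above 0. Without the filter on low values the counts were 93 for NC, 61 for IVF and 2 for FET, and with the filter but without NC mouse 1 the NC count was 14. The other of the 2 was Gm47789, a long intergenic non-coding RNA at chr9:77706558-77707882, with an FPKM of 6.52 in NC mouse 1, 0.944 in NC mouse 5 and 1.66 in NC mouse 6. Its highest level was in NC mouse 1, as for Hectd2os and unlike Chrna4. Looser patterns were more common, with 14 genes at 0 in all IVF and FET mice and 114 at 0 in all 3 FET mice. The pattern of Hectd2os, above 0 in the NC mice and IVF mouse 2 only, was counted after its values were seen and was shared by 1 other of the 6755 genes, Cyp2b9, a cytochrome P450 of drug and steroid metabolism. Cyp2b9 had 0.886, 8.08 and 2.37 FPKM in NC mice 1, 5 and 6 and 0.98 in IVF mouse 2. Without the filter on low values, 141 of 27411 genes had this pattern, or 0.514%.

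The genes around Chrna4 did not follow it. Of 27 listed genes within 250 kb, 14 were above 0 in some mouse and 5 passed the filter on low values. Col20a1, which encodes a collagen chain, ends 16 bp from the 3′ end of Chrna4, and its FPKM was 0.475, 0.856 and 1.21 in NC mice 1, 5 and 6. It was 0.140, 0.660 and 1.40 in IVF mice 2, 3 and 4 and 1.85, 0.0704 and 0 in FET mice 2, 3 and 4, so its groups overlapped. BX649560.1, 31.1 kb away, was at 0.185 to 0.229 in NC mice, 0.12 to 0.311 in IVF mice and 0 in FET mice. Arfgap1, which encodes a regulator of the ARF1 GTPase of Golgi transport, lies 35.9 kb away and was at 0.583 to 2.93 in NC, 0.476 to 3.45 in IVF and 0.517 to 4.53 in FET mice. On the other side, the small nuclear RNA gene Gm24892 was listed at 0 in all 9 mice, and Eef1a2, a translation elongation factor of muscle and neurons, was above 0 in NC mouse 5 alone, at 0.0409. Apart from Chrna4, the highest gene within 100 kb was Ythdf1 in NC mouse 5, at 3.65 FPKM, and Arfgap1 in NC mouse 6, at 2.93.

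Of the other tested neighbours of Chrna4, Ppdpf had the highest levels, at 13.4 to 29.97 in NC, 10.002 to 55.3 in IVF and 9.84 to 32.3 FPKM in FET mice. Ythdf1, which encodes a reader of N6-methyladenosine in RNA, was at 0.645 to 3.65, 0.5001 to 5.94 and 0.935 to 3.60 in the same groups. Helz2, which encodes a helicase, was at 1.57 to 3.91 in NC, 0.738 to 3.21 in IVF and 0.539 to 1.40 in FET mice. Gmeb2, which encodes a DNA-binding protein of the glucocorticoid response, was at 1.99 to 3.08 in NC, 0.231 to 3.91 in IVF and 0.404 to 1.32 in FET mice. Their IVF values overlapped those of NC. The NC and FET groups of Helz2 and Gmeb2 did not overlap, as was the case, with FET lower, for 17.1% of all genes tested. Their differences in log2(FPKM + 1), FET against NC, were -0.91 ± 0.59 (SE) with an adjusted p of 0.553 and -1.09 ± 0.60 (SE) with an adjusted p of 0.465 by limma, so neither passed the test.

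The surroundings of Hectd2os were likewise without a counterpart, apart from the overlapping Hectd2, whose levels were close to 0 in every mouse. Of 10 listed genes within 250 kb, 7 were above 0 in some mouse and 3 passed the filter. Hectd2 was at 0.0706, 0.0445 and 0.0513 FPKM in NC mice 1, 5 and 6, at 0.0945 in IVF mouse 2 and at 0 in the other 5 mice. It was thus above 0 in the same 4 mice as Hectd2os, far below it per length in each, and shares exonic bases with it. At no more than 0.0945 FPKM, Hectd2 lay near the floor, and no limit of detection was estimated for it. Its value of 0 in the other 5 mice therefore shows little. As deposited, IVF mouse 2 had the highest Hectd2 and the lowest Hectd2os of these 4 mice, while under both other scalings its Hectd2os was second to NC mouse 1. Ppp1r3c, which encodes a subunit that directs protein phosphatase 1 to glycogen, lies 26.1 kb away and was at 1.13 to 2.29 in NC, 0.310 to 1.72 in IVF and 0.739 to 5.21 in FET mice. Tnks2, which encodes the poly-ADP-ribosylating enzyme tankyrase 2, was at 0.805 to 1.71, 0.833 to 1.56 and 0.494 to 1.54. Btaf1, which encodes an ATPase that acts on the TATA-binding protein, was at 1.12 to 2.17, 0.973 to 3.62 and 0.698 to 4.41. Of the lower-coordinate genes, the Polycomb gene Pcgf5 was at 0.0573 to 0.398 over all mice, the pseudogene Gm9042 was above 0 in 4 mice, and F530104D19Rik and, on the other side, the pseudogene AC116128.1 were listed at 0 in all.

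**Figure D3:**
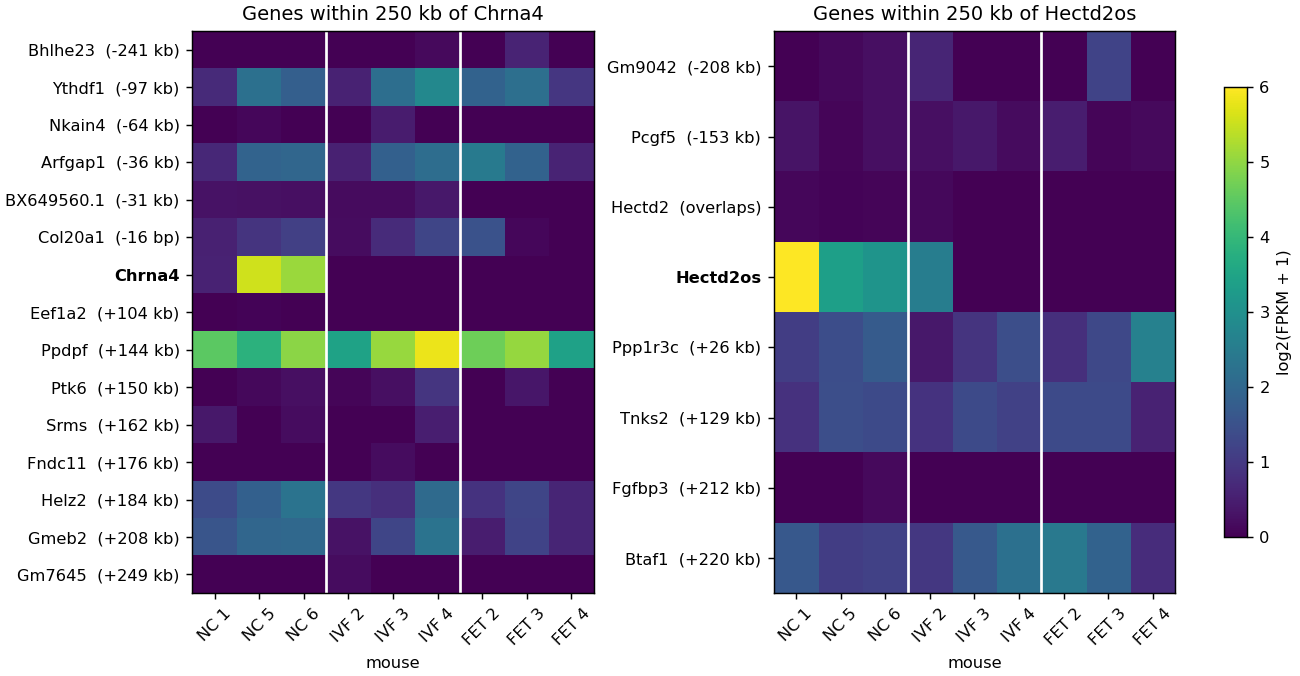
log2(FPKM + 1) in each mouse for the genes above 0 within 250 kb of Chrna4 (left) and Hectd2os (right), ordered by position along the chromosome with the gap to Chrna4 or Hectd2os in kb or bp. Hectd2os at 64.6 FPKM in NC mouse 1 is above all its neighbours, and Chrna4 at 33.0 FPKM in NC mouse 6 is close to Ppdpf at 29.97.

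Taking the 8 tested neighbours of both genes together, limma called 0 of them changed in any comparison, also at an unadjusted p under 0.05. Over all genes tested, it called 0.0592% in IVF against NC, 0.237% in FET against NC and 0.0888% in FET against IVF. Unadjusted, 4.07%, 12% and 4.01% of all genes tested passed, so little is read from 0 of 8. The median difference of the neighbours was -0.04 in IVF against NC and 0.03 in FET against NC on the log2(FPKM + 1) scale, against -0.25 and -0.46 over all genes tested. With another scaling the medians of all genes moved towards 0, and those of the neighbours were 0.15 to 0.23 in IVF against NC and 0.40 to 0.50 in FET against NC.

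Chrna4 was the highest nicotinic subunit in NC mice 5 and 6, but not in the other 7 mice. Of 16 nicotinic subunit genes, 10 were above 0 in some mouse. Chrna4 alone passed the filter on low values, which it did through NC mice 5 and 6, the values it was chosen by. Chrnb2, its usual partner, was at 0.204 and 0.164 FPKM in NC mice 5 and 6, at 0 in NC mouse 1, at 0.0270 to 0.509 in IVF mice and at 0 to 0.460 in FET mice, so it was no higher in the mice with high Chrna4 than in the rest. Chrnb1, the beta subunit of the muscle receptor, was at 0.545, 0.533 and 0.379 in NC mice 1, 5 and 6, at 0.262 in IVF mouse 2 and at 0 in the other 5, which are the same mice as for Hectd2os. Chrna2 was at 0.469 and 0.181 in NC mice 5 and 6 and higher, at 1.001, in IVF mouse 3. Chrne, the epsilon subunit of the adult muscle receptor, was at 0.116 and 0.217 in NC mice 5 and 6 and at 0.465 in IVF mouse 4. Both were listed at 0 in NC mouse 1 and in the remaining mice. Chrna6, Chrna7, Chrna9, Chrnb3 and Chrnd were each above 0 in 1 mouse, at no more than 0.0411. The summed level of the 12 neuron markers was 0.354 to 0.615 in NC, 0.281 to 0.848 in IVF and 0 to 0.638 in FET mice. Th, Dbh and Nefl, markers of catecholamine neurons and of axons, were listed at 0 in all 9 mice, and the 12 hepatocyte markers were above 0 in every mouse.

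Among 25 genes of acetylcholine handling and receptor assembly, 6 passed the filter. Limma called 0 of the 6 in any comparison, also at an unadjusted p under 0.05. Over all genes tested, it called 0.0592% in IVF against NC, 0.237% in FET against NC and 0.0888% in FET against IVF. Unadjusted, 4.07%, 12% and 4.01% of all genes tested passed, so little is read from the count of 0. Bche, which encodes butyrylcholinesterase, a liver-made enzyme that splits choline esters, had the largest difference in FET against NC, -1.14 ± 0.64 (SE) on the log2(FPKM + 1) scale with an adjusted p of 0.476 by limma. The choline kinase genes Chkb and Chka differed by -0.75 ± 0.84 and -0.30 ± 0.61 (SE), the choline transporter gene Slc44a1 by -0.62 ± 0.60 and Ly6e, a membrane protein of the Ly6 family, by 0.29 ± 0.72. The median of the 6 was -0.46, and over all genes tested it was also -0.46.

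Of 26 HECT ligase genes, the family of the gene opposite Hectd2os, all were above 0 in some mouse and 12 passed the filter. Limma called 0 of the 12 in each comparison, also at an unadjusted p under 0.05. In IVF against NC, FET against NC and FET against IVF, it called 0.0592%, 0.237% and 0.0888% of all genes tested. Unadjusted, 4.07%, 12% and 4.01% of them passed, so here too little is read from the count of 0. In FET against NC the median difference was -0.43 on the log2(FPKM + 1) scale, against -0.46 over all genes. The 5 with the largest differences were Arel1 at -1.09 ± 0.60 (SE), Huwe1 at -1.09 ± 0.60, Herc4 at -0.94 ± 0.58, Ube3a at 0.81 ± 0.58 and Hectd3 at -0.71 ± 0.66, with adjusted p between 0.465 and 0.708 by limma. In 5 of the 12, FET lay below NC without overlap, and in 1 above, beside 17.1% and 1.98% of all genes tested.

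The genes most like Chrna4 over the 9 mice, among those that passed the filter, were all segments of immune receptor genes. Pearson r of log2(FPKM + 1) was 0.994 to 0.997 for the 10 closest, which are Trbj2-6, Igkv10-96, Trbv3, Trbv1, Trbd2, Trbv15, Iglc2, Trbv13-1, Trbv12-2 and 1 more immunoglobulin kappa variable gene. T-cell receptor and immunoglobulin segments are joined in developing lymphocytes to make the receptors of T and B cells. All 10 were listed at 0 in NC mouse 1, where Chrna4 was above 0. Trbd2, for example, was at 24.1 and 22.6 FPKM in NC mice 5 and 6 and at 0 in the other 7. The r values rest on these 2 mice.

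The genes most like Hectd2os were more varied, with r between 0.768 and 0.913. Gm47789 came first, followed by the non-coding Gm44421 and Gm25745 and, as the closest coding genes, Serpina3g (r = 0.849), a serine protease inhibitor, and Cyp3a13 (r = 0.846), a cytochrome P450. Mafg, a small Maf transcription factor, had r = 0.802 and was at 6.27, 13.7 and 15.3 FPKM in NC mice 1, 5 and 6, at 1.47, 0 and 0.149 in IVF mice 2, 3 and 4 and at 0, 0 and 1.32 in FET mice 2, 3 and 4. Gm15675, Hnrnph2, Nudt8 and Acsm3 completed the 10. Gm47789, Serpina3g, Cyp3a13 and Gm15675 had their highest value in NC mouse 1, as did Hectd2os, and Gm25745 was highest in IVF mouse 2, at 10.3.

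**Figure D4:**
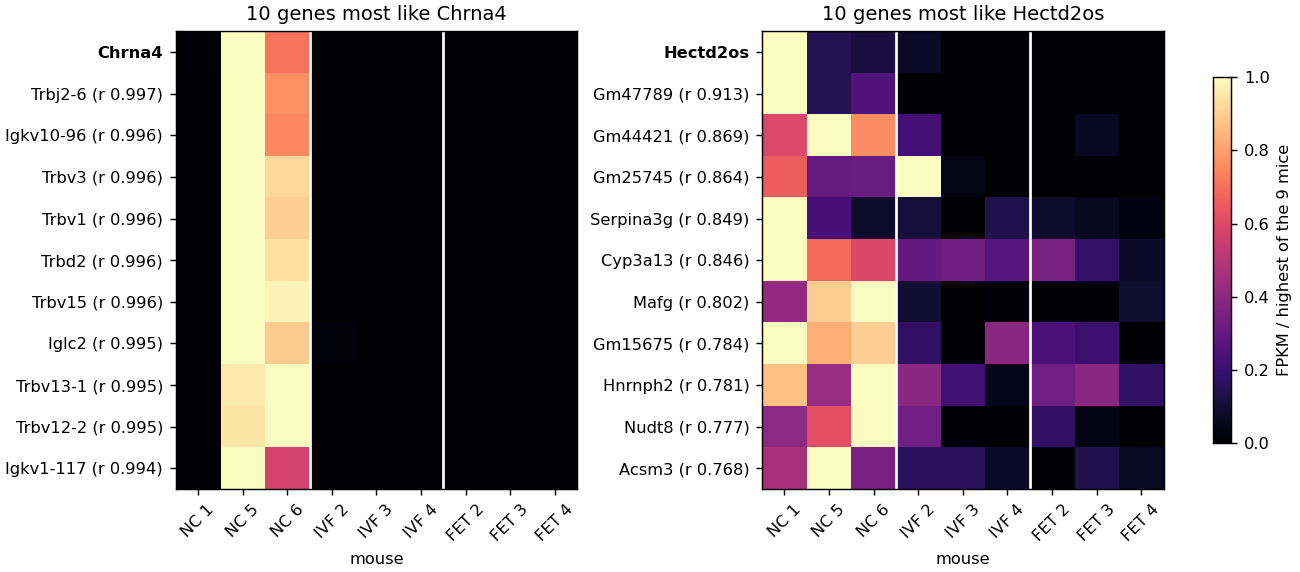
FPKM divided by the highest of the 9 mice for Chrna4 (left), Hectd2os (right) and the 10 genes with the highest Pearson r to each. The genes like Chrna4 are high in NC mice 5 and 6 and listed at 0 in NC mouse 1, and those like Hectd2os vary more, with Gm25745 highest in IVF mouse 2.

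NC mice 5 and 6 also stood apart from the other 7 mice in ways that move with Chrna4, seen after the values had been looked at. Of the 144 T-cell receptor variable genes, 95 and 99 were above 0 in NC mice 5 and 6, and 0 to 3 in the other mice. Of the 218 immunoglobulin variable genes, 96 and 103 were above 0 in these 2 mice, and 0 to 3 in the others. Of the constant genes, 10 and 10 of 13 immunoglobulin genes were above 0 in NC mice 5 and 6 against 2 to 7 in the others, and 6 and 5 of 8 T-cell receptor genes against 0 to 3. Summed levels of the variable genes separated these mice from the rest, but those of the constant genes did not. Summed FPKM of the T-cell receptor variable genes was 111.3 and 95.8 in NC mice 5 and 6 and at most 0.742 in the others. That of the immunoglobulin variable genes was 112.1 and 102.5, and at most 6.58 in the others. Summed FPKM of the immunoglobulin constant genes was 37.4 and 28.2 in NC mice 5 and 6 but 80.2 in IVF mouse 4, and that of the T-cell receptor constant genes was 4.73 and 3.76 but 4.62 in IVF mouse 4. Among 12 blood cell markers, the B-cell gene Ms4a1, at 0.0413 and 0.111 FPKM, and the cytotoxic lymphocyte gene Nkg7, at 0.242 and 0.248, were likewise above 0 in these 2 mice alone. The T-cell gene Cd3e, at 0.12 and 0.0918, and the B-cell gene Cd79a, at 0.351 and 0.352, were not higher there than in all others, with 0.528 for Cd3e in FET mouse 3 and 0.357 for Cd79a in IVF mouse 4. The summed level of the 12 markers, most of it haemoglobin, was 254.4 to 498 in NC, 60.4 to 304.2 in IVF and 128.3 to 424 in FET mice. The sheet numbers at the end of the sample descriptions run from 67 to 76 for the other 7 mice, and those of NC mice 5 and 6 lie well outside this run. Their part in the Chrna4 levels was not tested. Without NC mice 5 and 6, the NC level of Chrna4 is the 0.487 FPKM of NC mouse 1 alone, while that of Hectd2os is 64.6.

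**Figure D5:**
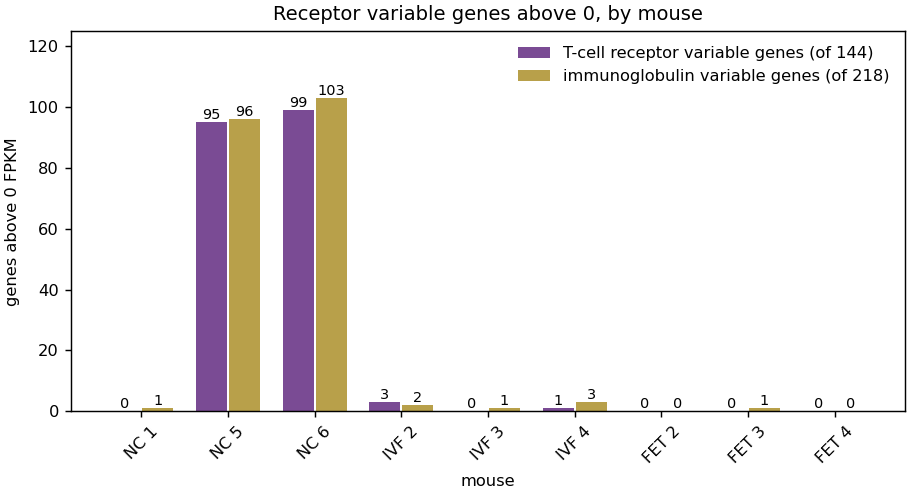
Number of T-cell receptor (of 144) and immunoglobulin (of 218) variable genes above 0 FPKM in each mouse. NC mice 5 and 6 have 95 to 103 of each, and the other 7 mice have 0 to 3.

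Leaving out NC mouse 1 or NC mouse 5 moved the 2 means in opposite ways. Without NC mouse 1, the NC mean rose from 26.7 to 39.8 FPKM for Chrna4 and fell from 27.2 to 8.53 for Hectd2os. Without NC mouse 5, the NC mean of Chrna4 fell to 16.7 and that of Hectd2os rose to 36.1. Both genes thus differ in which NC mouse carries the group mean, which is NC mouse 1 for Hectd2os and NC mice 5 and 6 for Chrna4.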

How the data were processed

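The authors deposited gene-level FPKM values of 9 liver libraries (Illumina Nova6000, TRIzol RNA), used as they stand. The submitters' processing notes name FastQC 0.11.5, STAR 2.5.3a, StringTie 1.3.1c and DESeq2 1.16.1 without roles; the genome build and strandedness are not given in the sources used here. Identifiers were matched to GENCODE vM21 (GRCm38), 55154 of 55335. Differences were tested on log2(FPKM + 1) with limma (version 3.58.1, R version 4.3.3), 1 model with 3 groups and a variance trend, two-sided, over the 6755 genes whose FPKM averaged 1 or more, with Benjamini-Hochberg adjustment. The fit was tested on simulated data. Neighbours lie within 250 kb. Likeness is Pearson r of log2(FPKM + 1) over 9 mice. Depth was estimated by 3 rules, with a tolerance of 2% around whole fragments on 19530 single-transcript genes. Both genes, the lists, the tests and the alternatives were chosen with earlier results of these data known. Named were both genes, the 3 nearest genes on each side, overlapping and tested neighbours, up to 5 tested genes per list, nicotinic subunits above 0, the 10 most alike genes and those with the NC-only pattern. A gene that this rule names is left out and not reported here.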

Additional observations from a re-analysis of the deposited data

How the results depend on the processing

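The counts of changed genes by limma were 0 for the neighbour, acetylcholine and HECT genes under every setting run, which shows little since few of all genes were called. Without NC mouse 1, the NC mean of Hectd2os went from 27.2 to 8.53 FPKM and that of Chrna4 from 26.7 to 39.8, or to 16.7 without NC mouse 5. The count over all genes moved. In IVF against NC it fell from 4 to 0 with a pseudocount of 0.1, without the filter, with median-ratio scaling, with quantile normalization, with rescaling to nuclear coding genes and with the 2 groups alone (179, 1580, 387, 531, 367 and 318 genes at an unadjusted p under 0.05), and to 2 with NC mouse 1 alone as NC, where the spread comes from the other groups. In FET against NC, 16 became 0 without the filter (2618 unadjusted), 26 with median-ratio scaling, 0 with the 2 groups alone (1031 unadjusted) and 6 with NC mouse 1 alone. In FET against IVF, 6 became 0 without the filter (829 unadjusted), 0 with the 2 groups alone (207 unadjusted) and 2 with the replicate block. Same-numbered IVF and FET mice had residual correlations of -0.13, 0.02 and -0.26. These cannot settle whether the numbers pair the mice, since the residuals of 3 mice per group depend on each other. Leaving out 1 mouse gave 0 to 24 genes in IVF against NC, with 24 without NC mouse 1 and 15 without FET mouse 2. It gave 1 to 83 in FET against NC, with 83 and 57 without the same mice and 1 without FET mouse 3, and 0 to 10 in FET against IVF. The NC-only pattern had 93 genes without the filter and 2 to 14 without 1 mouse, 14 of them without NC mouse 1, and held Hectd2os only without IVF mouse 2. The cause of these shifts was not tested.

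None of the neighbour or list genes was called in FET against NC, and the signs of several small differences turned. With median-ratio scaling, quantile normalization and coding rescaling, Ppdpf went from -0.04 to 0.43, 0.40 and 0.56, Tnks2 from -0.12 to 0.12, 0.37 and 0.19, and Chka from -0.30 to 0.036, 0.24 and 0.13. With NC mouse 1 alone, Tnks2 was 0.24. Without 1 mouse, the range was -0.37 to 0.44 for Ppdpf, -0.30 to 0.13 for Tnks2, -0.30 to 0.66 for Arfgap1, -0.34 to 0.46 for Ythdf1, -0.36 to 0.56 for Ppp1r3c and -0.13 to 0.78 for Ly6e. The estimated depth limits what a value of 0 shows for levels like that of Chrna4 in NC mouse 1, most of all in FET mouse 2.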

Other observations

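Of the genes with at least 1 FPKM in NC mice 5 and 6 that were listed at 0 in the other 7 mice, a pattern chosen after the values were seen, there were 56, and 41 of them were immunoglobulin or T-cell receptor genes. The 4 coding genes were Slc39a7, a zinc transporter of the endoplasmic reticulum, at 6.47 and 8.13 FPKM, Cpt1b, the muscle form of the carnitine palmitoyltransferase of fatty acid import into mitochondria, at 1.94 and 1.23, Brms1 at 1.70 and 3.10, and Spata22, a meiosis gene, at 2.13 and 2.89. The reverse pattern, listed at 0 in NC mice 5 and 6 and above 0 in the other 7, was found for 8 genes. Chrna4 is outside this set only through its 0.487 FPKM in NC mouse 1, and its highest level of 46.5 was above that of all 4 coding genes.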
